A study of Caenorhabditis elegans with 24 samples.

Results

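DAF-16-dependent transcript levels at the low insulin/IGF-1 signaling (IIS) state were compared in “all cells”, the cells collected from dissociated young adult *C. elegans* without selection for muscle. The comparison rests on 6 of the 24 mRNA-seq libraries of the series, picked by their genotype and cell type labels alone: 3 of *daf-2(lf)* and 3 of *daf-16(lf); daf-2(lf)* double mutants. Both strains carry the temperature-sensitive allele *daf-2(e1370)* and a transgene that labels body wall muscle with GFP, and the double mutant also carries the deletion *daf-16(mu86)*. Both were raised at the permissive temperature until the last larval stage, so that they did not arrest as dauer larvae, and then shifted to the restrictive temperature. Live cells were taken as those that exclude propidium iodide. Each genotype was a single strain, and each library was made from the sorted cells of a population of animals. The 3 *daf-2(lf)* and 3 double mutant libraries of sorted GFP-positive “muscle cells” served to show where all cells differed from muscle.

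In this pathway the insulin receptor DAF-2 signals through the phosphoinositide 3-kinase AGE-1, the kinase PDK-1 and the AKT kinases, which phosphorylate the FOXO transcription factor DAF-16 and keep it in the cytosol. When DAF-2 activity is low, DAF-16 enters the nucleus and alters the transcription of genes for stress resistance, metabolism, immunity and development. The intestine is a well-known site of DAF-16 action in the control of lifespan. The contrast of *daf-2(lf)* with the double mutant asks which transcripts depend on DAF-16 when IIS is low.

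The *daf-16* gene matched the labels. Of its 14 transcripts, the 5 that were detected in muscle cells with intact *daf-16* and listed at 0 in all muscle cells libraries with the deletion summed to 32.3, 25.02 and 15.96 TPM in the *daf-2(lf)* libraries, against 0 in all 3 double mutant libraries. TPM expresses each transcript's share of a library per unit of its length. None of these 5 transcripts had a value above 0 in the 2 all cells libraries with a wild-type label, which goes against that label. Levels there were low, with 10.81 and 3.77 TPM for the other *daf-16* transcripts and 0 and 0.747 TPM for *daf-2*, which weakens this reading. Those 2 libraries enter the main fit only through the shared estimate of spread, and without them 395 genes were called, 351 of them among the 358 given below. The remaining 9 *daf-16* transcripts summed to 12.2, 16.8 and 34.7 TPM in *daf-2(lf)* and to 50.7, 61.4 and 55.3 TPM in the double mutant, so that *daf-16* as a whole was not called (log2 difference -0.28, SE 0.37). *daf-2*, the receptor gene mutated in both strains, had 13.97, 9.66 and 14.2 TPM in *daf-2(lf)* and 12.5, 10.01 and 9.19 TPM in the double mutant, with overlapping libraries. Read totals, estimated from the steps between low TPM values, were 35.8 to 43.8 M reads in *daf-2(lf)* and 37.9 to 38.4 M reads in the double mutant. Between 18272 and 19172 genes were above 0 in *daf-2(lf)* libraries and between 18222 and 18820 in double mutant libraries. Markers of all 12 cell types examined were present. Summed over their lists, markers of body wall muscle had 5081 to 5700 TPM in *daf-2(lf)* and 4787 to 5603 TPM in the double mutant, and those of the intestine had 3931 to 4789 and 4400 to 4932 TPM. No marker gene passed the test by limma. At an unadjusted p under 0.05 only 2 of them differed, both of the intestine, and 1 of the intestine was called from estimated reads. Of all 14714 genes tested, 1162 had such an unadjusted p. On mean log2(TPM + 1), the list differences ran from -0.80 for sperm (exact permutation test, two-sided, p = 0.5) to 0.14 for the germline (p = 0.9). The lowest p was 0.1, the smallest that 3 against 3 libraries allow, for the intestine at -0.12. In bulk RNA, fewer cells of a type and less RNA per cell cannot be told apart.

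DAF-16 activity went with higher levels of many transcripts that were nearly absent without it. Among 14714 genes tested, 253 rose (1.72%) and 105 fell (0.714%) in *daf-2(lf)* relative to the double mutant (limma on log2(TPM + 1), Benjamini-Hochberg adjusted p under 0.05). Differences are given throughout as *daf-2(lf)* minus double mutant on this scale, where changes of scarce transcripts come out too small. The median of all genes tested was -0.06. Genes that rose had a median difference of 2.15. The median of their mean levels was 9.29 TPM in *daf-2(lf)* and 0.586 TPM in the double mutant, where 150 of them were below 1 TPM and 22 were listed at 0 in all 3 libraries, so that the difference of these 22 depends on the pseudocount. Genes were tested only if they reached 1 TPM in 3 or more of the 24 libraries. A gene below 1 TPM in all other groups thus entered only by reaching it in all 3 *daf-2(lf)* all cells libraries. How many of the genes that rose entered in this way was not counted. Genes that fell had smaller differences, with a median of -1.20, and median levels of 1.29 TPM in *daf-2(lf)* and 4.39 TPM in the double mutant. All 3 libraries of one genotype lay beyond all 3 of the other for 242 of the genes that rose and 100 of those that fell. Over all genes tested the *daf-2(lf)* libraries all lay above for 1122 (7.63%) and all below for 1128 (7.67%), and the called genes were chosen on these same libraries. The main fit pooled the spread over all 8 groups. A limma fit of the 6 libraries alone, which takes the spread from these libraries only and with few degrees of freedom, called 158 genes, 128 of them among the 358. Of the 77 called genes that the naming rule gave, that fit did not call 35: *col-37*, *irg-5*, *irg-1*, *ZC239.22*, *K08D8.11*, *vit-1*, *vit-3*, *vit-4*, *vit-5*, *pdk-1*, *ist-1*, *ins-16*, *dod-3*, *dod-24*, *ctl-3*, *gst-4*, *gst-15*, *gstk-2*, *cyp-33B1*, *cyp-14A4*, *cyp-13A4*, *lipl-3*, *lipl-4*, *lips-6*, *lips-11*, *gpd-2*, *spp-20*, *spp-27*, *clec-10*, *clec-61*, *clec-101*, *clec-249*, *fipr-22*, *ttr-19* and *nhr-99*. Estimated reads of the 6 libraries did not call 36 of the 77, 8 of which that fit had called: *scl-11*, *scl-12*, *F49H6.5*, *mtl-1*, *ins-7*, *col-51*, *col-85* and *C54F6.5*.

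**Figure D1:**
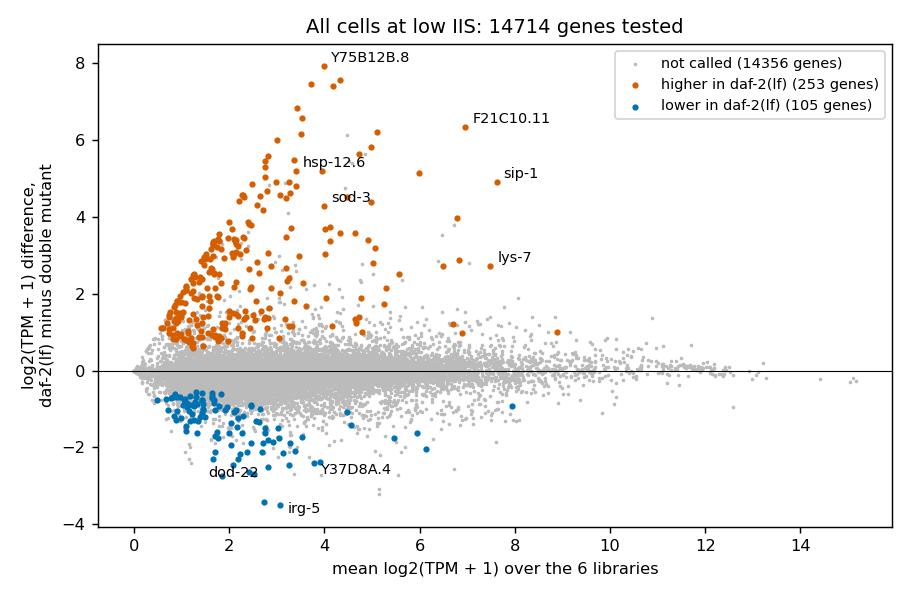
The log2(TPM + 1) difference (*daf-2(lf)* minus double mutant, vertical axis) of each of the 14714 genes tested in all cells is plotted against its mean log2(TPM + 1) over the 6 libraries (horizontal axis). The 253 genes that rose (orange) reach a difference of 7.92, while the 105 that fell (blue) reach -3.49.

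The largest rises were of short genes without a characterized product and of genes for secreted SCP-like proteins. *Y75B12B.8* (sequence name C41G6.13; chromosome V of WBcel235, 15208422 to 15209332, forward strand, 6 exons) had 320, 157 and 297 TPM in *daf-2(lf)*, against 0, 0.0685 and 0 TPM in the double mutant. The single positive double mutant library held an estimated 2 reads of it, and the *daf-2(lf)* libraries held 8942, 5048 and 9525. Its difference was 7.92 (SE 0.26, adjusted p = 2.31e-14). The neighbors *Y60C6A.3* and *Y60C6A.2* lie on opposite strands of chromosome V (4785802 to 4786197 and 4785011 to 4785433). *Y60C6A.3* had 146, 267 and 521 TPM in *daf-2(lf)* and 0, 0.338 and 1.29 TPM in the double mutant, a difference of 7.56 (SE 0.36, adjusted p = 7.49e-12). *Y60C6A.2* had 181, 202 and 360 TPM in *daf-2(lf)* and 0, 0.358 and 1.02 TPM in the double mutant, a difference of 7.40 (SE 0.45, adjusted p = 3.89e-10). For all 3 genes, every *daf-2(lf)* library was far above every double mutant library.

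*Y57E12B.1* (chromosome V, 6948525 to 6948874, forward strand, 2 exons) had 63.5, 361 and 227 TPM in *daf-2(lf)* and was listed at 0 in all 3 double mutant libraries (difference 7.45, SE 0.69, adjusted p = 1.81e-07). *F21C10.11* (chromosome V, 9123486 to 9123852, overlapping *F21C10.13*) was the most abundant of the group, with 1841, 520 and 1473 TPM in *daf-2(lf)* and 12.61, 4.28 and 35.9 TPM in the double mutant. *ZK355.8* (chromosome II, 2927804 to 2928141) had 189, 337 and 399 TPM in *daf-2(lf)* and 1.86, 3.03 and 4.71 TPM in the double mutant. All of these are small genes. Replicates within *daf-2(lf)* varied more for *Y57E12B.1* and *F21C10.11* than for *ZK355.8*, while the genotypes stayed far apart. *C54F6.15* (chromosome V, 7521900 to 7522379) had 86.2, 66.5 and 241 TPM in *daf-2(lf)* and 0, 0 and 0.724 TPM in the double mutant. *Y71F9AM.8*, which overlaps *cogc-3*, had 52.4, 71.0 and 227 TPM in *daf-2(lf)* and 0.425, 0.216 and 0.413 TPM in the double mutant. *F20E11.17* (chromosome V, 17468613 to 17469280) had 122.1, 305 and 348 TPM in *daf-2(lf)* and 2.61, 1.33 and 7.62 TPM in the double mutant. Short genes were common among those that rose: 91 of 253 (36.0%) had a longest transcript under 600 bases, against 16.6% of all genes tested. The TPM of such transcripts depends most on the effective length that the quantification assigns.

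The *scl* genes encode SCP-like extracellular proteins of the CAP family, and *scl-1* is known to be needed for the long life of *daf-2* mutants. Of 13 *scl* and *vap* genes tested, 4 rose (against 1.72% of all genes) and 0 fell, with a median of 0.33 over the list against -0.06 over all genes. Without adjustment, 6 of the 13 had p under 0.05, 4 of them positive, against 1162 of the 14714 genes tested. *scl-12* (chromosome V, 3812591 to 3813437) had 206, 38.8 and 186 TPM in *daf-2(lf)* and 0, 0 and 0.0374 TPM in the double mutant (difference 6.83, SE 0.38, adjusted p = 8.53e-11). Its neighbor *scl-13* (3810785 to 3811641, the opposite strand) had 76.3, 28.1 and 116 TPM in *daf-2(lf)* and was listed at 0 in all 3 double mutant libraries (difference 6.001, SE 0.34, adjusted p = 1.23e-10). *scl-11* on chromosome IV had 90.1, 15.9 and 74.0 TPM in *daf-2(lf)* and 0, 0 and 0.0377 TPM in the double mutant (difference 5.59, SE 0.37, adjusted p = 8.89e-10). In all 3 genes *daf-2(lf)* replicate 2 was the lowest of its group and still far above the double mutant. Over all genes tested, *daf-2(lf)* replicate 2 was the lowest of its group for 6003 of 14714. *scl-1*, on the same chromosome as *scl-11*, had only 1.85, 4.34 and 3.64 TPM in *daf-2(lf)* and 0 in all 3 double mutant libraries (difference 2.05, SE 0.30, adjusted p = 0.000151). Reads of *scl-11*, *scl-12* and *scl-13*, and those of *Y60C6A.2* and *Y60C6A.3*, may be split between like copies, which was not examined.

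**Figure D2:**
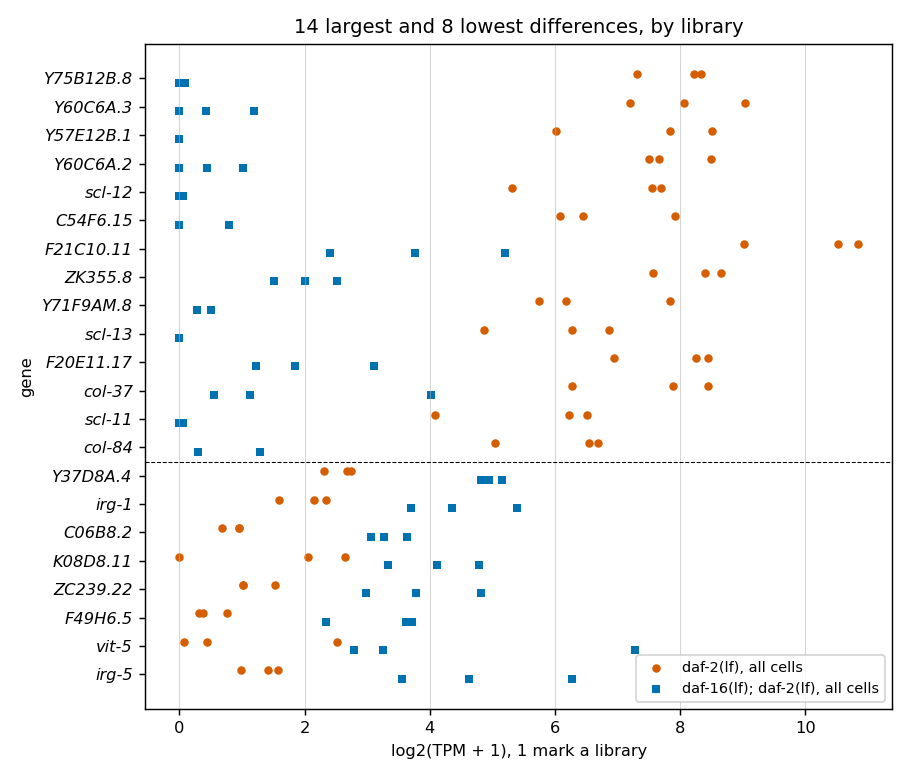
log2(TPM + 1) in each library (horizontal axis) of the 14 genes with the largest and, below the dashed line, the 8 with the lowest differences among called genes whose libraries do not overlap, with *daf-2(lf)* all cells (orange circles) above double mutant all cells (blue squares) in each row. For the 14 upper genes the orange marks all lie to the right of the blue ones with a wide gap, while the genotypes are closer in the 8 lower genes.

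Chromosome V held 111 of the genes that rose (43.9%) and 33 of those that fell (31.4%), against 20.4% of the genes tested. Genes that rose often lay near each other. Of 252 with a position on a chromosome, 24.2% had another gene that rose within 10000 bases, while 4.47% of all genes tested had one. For genes that fell the shares were 12.4% and 1.96%. The longest runs were chosen after their values were seen. At chromosome V 579277 to 595677, 6 genes rose: *K06H6.4*, *nstp-7*, *K06H6.2*, *K06H6.1*, *ZK488.6* and *ZK488.5*. *K06H6.2* had 53.0, 28.1 and 45.6 TPM in *daf-2(lf)* and 0, 0.168 and 0.0685 TPM in the double mutant. At 539460 to 553167 of the same chromosome 5 genes rose, beginning with the nuclear hormone receptor gene *nhr-155*, which had 3.99, 9.37 and 10.2 TPM in *daf-2(lf)* and 0.131, 0.133 and 0.0635 TPM in the double mutant (difference 2.91, SE 0.20, adjusted p = 2.34e-09). The run at 7521900 to 7529450 held *C54F6.15*, *C54F6.6*, *C54F6.17* and *C54F6.5*. Neighbors can be copies of each other or share reads, and these counts describe positions only.

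Genes long known to be raised by DAF-16 followed that direction. The list of 30 such genes was drawn up from general knowledge, largely of whole-animal work. Of the 28 tested, 12 rose and 0 fell, with a median of 1.16, and 26 were above 0 in sign. Over all genes tested, 1.72% rose. *hsp-12.6*, a small heat shock protein gene, had 85.9, 33.9 and 84.0 TPM in *daf-2(lf)* and 0.524, 0.711 and 1.02 TPM in the double mutant (difference 5.19, SE 0.63, adjusted p = 9.44e-06). *sip-1*, of the same family, had 1544, 729 and 1088 TPM in *daf-2(lf)* and 24.1, 20.4 and 85.4 TPM in the double mutant (difference 4.90, SE 0.99, adjusted p = 0.00547). These were the only members called among 12 small heat shock protein genes, whose median was 0.19. The stress-inducible *hsp-16.2* had 2.79, 5.45 and 3.11 TPM in *daf-2(lf)* and 9.12, 4.06 and 2.84 TPM in the double mutant, and *hsp-16.48* had 6.94, 98.4 and 103 against 9.09, 77.5 and 19.3 TPM. Both varied as much within the genotypes as between them. None of 13 genes of the HSP70 and HSP90 family was called by limma or from estimated reads, nor reached an unadjusted p under 0.05, and their median was 0.13.

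*sod-3*, the mitochondrial manganese superoxide dismutase gene commonly used as a readout of DAF-16, had 89.3, 37.7 and 99.0 TPM in *daf-2(lf)* and 1.52, 4.43 and 2.47 TPM in the double mutant (difference 4.28, SE 0.68, adjusted p = 0.000336). It overlaps *C08A9.3* and *lido-1*. *sod-5*, a cytosolic copper/zinc superoxide dismutase gene, had 7.53, 4.48 and 8.89 TPM in *daf-2(lf)* and 0.143, 0.109 and 0.450 TPM in the double mutant (difference 2.66, SE 0.31, adjusted p = 4.94e-06). In both genes the genotypes were separated by a wide gap. The abundant *sod-1* had 470, 372 and 520 TPM in *daf-2(lf)* and 253, 266 and 188 TPM in the double mutant and was not called (adjusted p = 0.165), *sod-2* overlapped between genotypes, and *sod-4* had 17.2, 16.8 and 18.3 against 24.3, 20.97 and 25.7 TPM without passing. The catalase gene *ctl-3* rose, with 26.2, 14.9 and 23.8 TPM in *daf-2(lf)* and 7.42, 4.65 and 5.82 TPM in the double mutant (difference 1.68, SE 0.36, adjusted p = 0.00888). Its call was lost without *daf-2(lf)* replicate 1 (adjusted p = 0.0577), *daf-2(lf)* replicate 3 (0.0565) or double mutant replicate 2 (0.0606). Its paralogs *ctl-1* (101, 51.3 and 77.8 against 48.5, 33.8 and 38.0 TPM) and *ctl-2* did not pass. In all, 3 of 24 genes for superoxide dismutases, catalases and thiol antioxidants rose (against 1.72% of all genes) and 0 fell, with a median of 0.14.

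Among 13 genes of metal handling, 3 rose (1.72% of all genes did) and 0 fell, with a median of 0.18. *ftn-1*, a ferritin gene for iron storage, had 65.7, 49.2 and 75.8 TPM in *daf-2(lf)* and 4.66, 4.67 and 2.42 TPM in the double mutant (difference 3.73, SE 0.41, adjusted p = 2.91e-06). *smf-2*, a divalent metal transporter gene that overlaps *nas-11*, had 3.28, 4.23 and 7.15 TPM in *daf-2(lf)* and at most 0.0834 TPM in the double mutant (difference 2.44, SE 0.16, adjusted p = 7.46e-10). The metallothionein gene *mtl-1* had 877, 121 and 508 TPM in *daf-2(lf)* and 6.61, 8.88 and 15.5 TPM in the double mutant (difference 5.14, SE 1.23, adjusted p = 0.0222). The call was lost without *daf-2(lf)* replicate 1 (adjusted p = 0.123) or 3 (0.0984) or double mutant replicate 1 (0.0807) or 2 (0.0764), although its libraries did not overlap. The other metallothionein gene, *mtl-2*, had 483, 490 and 380 TPM in *daf-2(lf)* and 584, 740 and 729 TPM in the double mutant, a difference of -0.60 that was not called.

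Further known DAF-16 targets rose in metabolism and desiccation tolerance. *lea-1*, for a late embryogenesis abundant protein, had 340, 245 and 346 TPM in *daf-2(lf)* and 45.3, 45.9 and 33.7 TPM in the double mutant (difference 2.87, SE 0.36, adjusted p = 1.51e-05). It and *nnt-1*, the nicotinamide nucleotide transhydrogenase gene, rank past the 5 largest of the list and were named after their values were seen. *nnt-1* had 22.8, 6.76 and 16.8 TPM in *daf-2(lf)* and 1.64, 1.28 and 1.78 TPM in the double mutant (difference 2.54, SE 0.28, adjusted p = 2.79e-06). *gpd-2*, a glyceraldehyde-3-phosphate dehydrogenase gene of glycolysis and gluconeogenesis that overlaps *mai-1*, had 669, 587 and 742 TPM in *daf-2(lf)* and 406, 381 and 235.4 TPM in the double mutant (difference 1.00, SE 0.25, adjusted p = 0.0333). It was the only call among 26 genes of the glyoxylate shunt, gluconeogenesis and trehalose synthesis (1.72% of all genes rose), whose median was 0.41. The *gpd-2* call was lost without *daf-2(lf)* replicate 1 (adjusted p = 0.097) or 3 (0.158) or double mutant replicate 3 (0.272). *icl-1*, the glyoxylate shunt enzyme, had 443, 223 and 281 TPM in *daf-2(lf)* and 245, 84.7 and 111 TPM in the double mutant, with overlapping libraries.

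**Figure D3:**
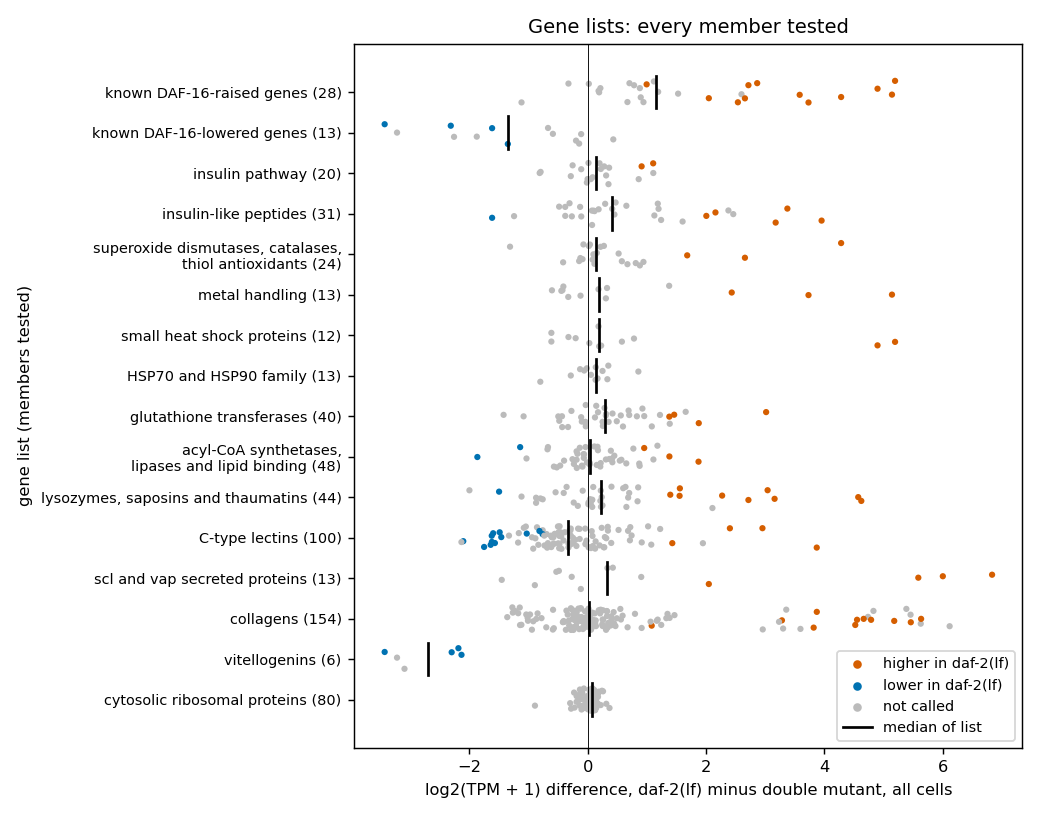
The log2(TPM + 1) difference (*daf-2(lf)* minus double mutant, all cells, horizontal axis) of every tested member of 16 gene lists (rows, with the number tested), colored by call, with the median of each list as a black bar. The bar stands at 1.16 for genes known to be raised by DAF-16 and at -1.35 for those known to be lowered, and close to 0 for most families, in which a few members rose far above the rest.

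Of 40 glutathione transferase genes, which serve detoxification, 4 rose (against 1.72% of all genes) and 0 fell, with a median of 0.30. *gst-29* had 12.5, 7.82 and 13.9 TPM in *daf-2(lf)* and 0.618, 0.463 and 0.411 TPM in the double mutant (difference 3.02, SE 0.20, adjusted p = 9.74e-10). *gst-4*, a common reporter of oxidative stress that overlaps *dhs-12*, had 26.4, 58.6 and 87.1 TPM in *daf-2(lf)* and 8.08, 20.4 and 13.8 TPM in the double mutant (difference 1.88, adjusted p = 0.00389). The gap between the genotypes was narrow for *gst-4*, where the lowest *daf-2(lf)* library lay just above the highest double mutant library. *gst-15* rose by 1.46 (adjusted p = 0.00391). Among 51 cytochrome P450 genes, *cyp-33B1* (1.33, 1.35 and 4.55 against 0.0702, 0.0357 and 0.148 TPM) and *cyp-14A4* rose, and *cyp-13A4* fell by 0.70 (adjusted p = 0.00304). Over all genes tested, 1.72% rose and 0.714% fell. *cyp-14A4* was lost without *daf-2(lf)* replicate 3 (adjusted p = 0.0836) or double mutant replicate 1 (0.0514) or 3 (0.0626). None of 58 UDP-glucuronosyltransferase genes was called by limma or from estimated reads, with 9 at an unadjusted p under 0.05. Of all 14714 genes tested, 1162 were under it. The short-chain dehydrogenase gene *dhs-9* had 68.8, 54.6 and 87.4 TPM in *daf-2(lf)* and 22.8, 22.3 and 15.7 TPM in the double mutant (difference 1.74, SE 0.33, adjusted p = 0.00311). It was the only call of 31 in its family, and it overlaps *Y32H12A.1*.

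Of 48 genes for acyl-CoA synthetases, lipases and lipid-binding proteins, 3 rose and 2 fell (against 1.72% and 0.714% of all genes), with a median of 0.04. *lipl-4*, a lysosomal lipase gene linked to long life, had 3.64, 1.82 and 5.62 TPM in *daf-2(lf)* and 0.534, 1.12 and 0.507 TPM in the double mutant (difference 1.38, SE 0.22, adjusted p = 0.000364). *lips-11* rose by 0.96 (adjusted p = 0.000389) and *lips-6* fell by 1.14 (adjusted p = 0.00031). None of these 3 was called by the fit of the 6 libraries alone (adjusted p = 0.168 for *lipl-4*, 0.165 for *lips-11* and 0.0856 for *lips-6*) or from estimated reads (0.0797, 0.096 and 0.0954). The lysosomal lipase gene *lipl-3* went the other way, with 4.93, 2.78 and 1.79 TPM in *daf-2(lf)* and 23.01, 4.92 and 20.2 TPM in the double mutant (difference -1.86, SE 0.39, adjusted p = 0.00756). *lipl-3* overlaps *srw-107*. Its genotypes overlapped in 1 pair of libraries, *daf-2(lf)* replicate 1 and double mutant replicate 2, and the call was lost without *daf-2(lf)* replicate 3 (adjusted p = 0.0678) or double mutant replicate 1 (0.0569) or 3 (0.0615). *lips-15* rose by 1.87 (adjusted p = 0.0437), but not with any library other than *daf-2(lf)* replicate 2 left out (adjusted p 0.109 to 0.197). None of 37 genes of fatty acid synthesis, desaturation and elongation was called by limma or from estimated reads. An unadjusted p under 0.05 was found for 2 of the 37, against 1162 of the 14714 genes tested.

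Insulin-like peptide genes changed mostly upward. *C. elegans* has a large family of such ligands, some of which activate and some of which oppose DAF-2. Of 31 tested, 5 rose (1.72% of all genes did) and 1 fell, with a median of 0.42. *ins-35* had 316, 347 and 732 TPM in *daf-2(lf)* and 29.8, 54.5 and 11.7 TPM in the double mutant (difference 3.95, SE 0.69, adjusted p = 0.00104). *ins-11* had 100, 65.8 and 150 TPM in *daf-2(lf)* and 14.2, 10.4 and 6.91 TPM in the double mutant (difference 3.18, SE 0.45, adjusted p = 9.23e-05). *ins-16* had 81.4, 17.3 and 113 TPM in *daf-2(lf)* and 1.97, 5.002 and 7.64 TPM in the double mutant (difference 3.38, SE 0.66, adjusted p = 0.00351), and was called neither by the fit of the 6 libraries alone (adjusted p = 0.121) nor from estimated reads (0.184). The neighbors *ins-24* and *ins-30* rose by 2.16 (adjusted p = 0.00726) and 2.01 (adjusted p = 0.00405). *ins-7*, for an agonist of DAF-2 known to be repressed by DAF-16 in the intestine, was the member that fell, with 1.94, 1.51 and 1.78 TPM in *daf-2(lf)* and 8.84, 6.45 and 7.002 TPM in the double mutant (difference -1.61, SE 0.19, adjusted p = 5.79e-06). The genotypes did not overlap in any of these 6 genes, which were called on these same libraries (over all genes tested, 7.63% lay wholly above and 7.67% wholly below). *daf-28*, *ins-1*, *ins-6* and *ins-18* overlapped between genotypes.

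In the signaling pathway itself, 2 of 20 genes rose (against 1.72% of all genes), 0 fell, and the median was 0.14. *pdk-1*, the kinase that activates AKT, had 3.92, 4.22 and 4.78 TPM in *daf-2(lf)* and 1.75, 1.70 and 0.996 TPM in the double mutant (difference 1.11, SE 0.29, adjusted p = 0.0479). *ist-1*, the insulin receptor substrate homolog, had 2.99, 2.96 and 3.97 TPM in *daf-2(lf)* and 1.58, 1.47 and 0.847 TPM in the double mutant (difference 0.91, SE 0.24, adjusted p = 0.0447). Both stood close to the threshold, and neither was called with any 1 of the 6 libraries left out (adjusted p 0.0771 to 0.278 for *pdk-1* and 0.0553 to 0.272 for *ist-1*). *akt-2* had 13.3, 11.1 and 15.1 TPM in *daf-2(lf)* and 5.31, 6.26 and 5.07 TPM in the double mutant and did not pass (difference 1.11, adjusted p = 0.0796). *sgk-1*, a related kinase gene, had 11.6, 12.5 and 13.9 TPM in *daf-2(lf)* and 23.2, 24.7 and 20.1 TPM in the double mutant (difference -0.79, adjusted p = 0.315).

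Genes of secreted antimicrobial proteins changed in both directions. Of 44 genes for lysozymes, saposin-like proteins and thaumatins, 9 rose and 1 fell (against 1.72% and 0.714% of all genes), with a median of 0.22. *lys-7*, a lysozyme gene of the intestine that protects against bacteria, had 582, 350 and 473 TPM in *daf-2(lf)* and 102, 58.9 and 54.5 TPM in the double mutant (difference 2.72, SE 0.62, adjusted p = 0.0162). Its call was lost without *daf-2(lf)* replicate 1 (adjusted p = 0.0764) or 3 (0.0655) or double mutant replicate 2 (0.0713) or 3 (0.0836), while the fit of the 6 libraries alone called it (0.0119). *spp-29* had 25.4, 12.5 and 36.8 TPM in *daf-2(lf)* and *ilys-6*, an invertebrate-type lysozyme gene, had 10, 3.41 and 10.5 TPM, and both were listed at 0 in all 3 double mutant libraries. The neighbors *spp-27* (11.3, 104 and 85.9 against 0.0967, 3.64 and 0.470 TPM) and *spp-20* (2.26, 9.21 and 22.5 against 0, 0.0984 and 0 TPM) rose by 4.62 (adjusted p = 0.000299) and 3.16 (adjusted p = 8.63e-06), and both overlap *twk-10*. All 10 called members of this list had libraries that did not overlap, but they were called on these same libraries. Over all genes tested, *daf-2(lf)* lay wholly above for 7.63% and wholly below for 7.67%.

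C-type lectin genes, whose products bind carbohydrates and are often made in response to microbes, fell more often than they rose: 12 of 100 tested fell (against 0.714% of all genes) and 4 rose (against 1.72%), with a median of -0.32. *clec-26* had 0.725, 1.09 and 0.802 TPM in *daf-2(lf)* and 7.32, 4.77 and 4.14 TPM in the double mutant (difference -1.75, SE 0.18, adjusted p = 1.06e-06). *clec-36*, *clec-26*, *clec-31* and *clec-28*, which all fell, lie within chromosome V 16846811 to 16867293. *clec-28*, named after its values were seen, had 0.162, 0.431 and 0.169 TPM in *daf-2(lf)* and 2.97, 2.42 and 2.72 TPM in the double mutant. *clec-10* had 1.99, 10.7 and 2.63 TPM in *daf-2(lf)* and 22.01, 21.7 and 18.1 TPM in the double mutant, and its call was lost without *daf-2(lf)* replicate 1 (adjusted p = 0.0729) or 3 (0.0678). In the other direction, *clec-101* had 3.95, 31.1 and 21.01 TPM in *daf-2(lf)* and at most 0.0494 TPM in the double mutant (difference 3.87, SE 0.39, adjusted p = 7.13e-07). *clec-249* had 9.40, 2.26 and 12.7 TPM in *daf-2(lf)* and 0 in all 3 double mutant libraries. *clec-61* rose by 2.40 (adjusted p = 0.0255), but not without *daf-2(lf)* replicate 1 (0.189) or double mutant replicate 2 (0.188) or 3 (0.113). The intestinal marker list was lower in *daf-2(lf)* by 0.12, as given above, and its part in these changes was not tested. Among 45 genes for antimicrobial peptides of the epidermis, *fipr-22* alone rose (difference 2.31, adjusted p = 0.00811), and not without *daf-2(lf)* replicate 1 (0.0506) or double mutant replicate 3 (0.0639).

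Of 154 collagen genes, most of them for the cuticle, 11 rose (against 1.72% of all genes) and 0 fell, with a median of 0.02. *col-37* (chromosome V, 12166706 to 12167753, reverse strand) had 76.5, 347 and 235.3 TPM in *daf-2(lf)* and 0.469, 15.3 and 1.18 TPM in the double mutant (difference 5.63, SE 1.10, adjusted p = 0.00384). *col-84* (chromosome II, 11868534 to 11869682, overlapping *npp-3*) had 31.8, 102 and 92.1 TPM in *daf-2(lf)* and 0.234, 1.43 and 0.227 TPM in the double mutant (difference 5.46, SE 1.12, adjusted p = 0.00631). *col-51* rose by 4.79 (adjusted p = 0.00135). *col-85* (36.0, 189 and 112 against 0.290, 6.87 and 0.643 TPM) rose by 5.18 (adjusted p = 0.0472), but not without any library other than double mutant replicate 2 (adjusted p 0.0504 to 0.193). Most of these genes shared an order of libraries. *daf-2(lf)* replicate 1 was the lowest of its group in all 11 genes, and double mutant replicate 2 was the highest of its group in 9. These were also common places over all 14714 genes tested, at 7644 and 6831 genes, so the order is not particular to collagens. *col-108* departed from this order in the double mutant, with 23.2, 24.5 and 67.6 TPM in *daf-2(lf)* and 0.218, 0.400 and 0.530 TPM in the double mutant (difference 4.66, SE 0.29, adjusted p = 4.26e-10). The dauer collagen gene *col-2* had a difference of 5.63 (SE 1.62) that did not pass (adjusted p = 0.0813), and *col-36* one of 6.12 (SE 1.88, adjusted p = 0.12). Both were named after their values were seen. The fit of the 6 libraries alone called 17 collagen genes, 7 of them among the 11 that rose, against 158 of all 14714 genes tested. Markers of the hypodermis, which makes most cuticle collagens, had a mean log2(TPM + 1) of 6.47, 5.83 and 6.33 in *daf-2(lf)* and 6.44, 6.34 and 6.53 in the double mutant (exact permutation test, two-sided, p = 0.4). The hypodermis markers include the collagen genes *dpy-5*, *dpy-7*, *rol-6*, *bli-1* and *col-19*, so their level is not separate from that of collagens. The part of these markers in the collagen changes was not tested.

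**Figure D4:**
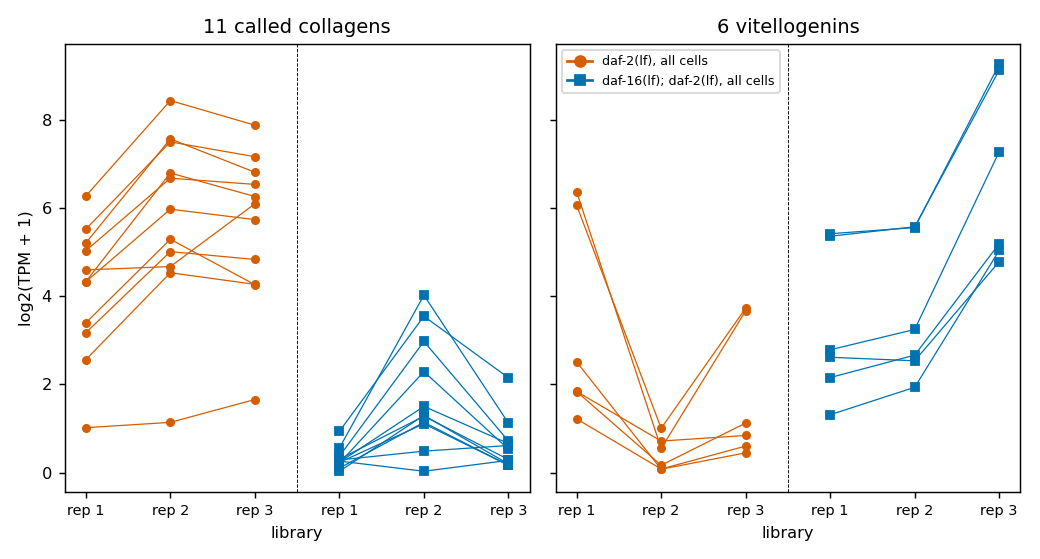
log2(TPM + 1) (vertical axis) in each of the 6 all cells libraries (horizontal axis, *daf-2(lf)* in orange, then double mutant in blue) of the 11 collagen genes that rose (left) and the 6 vitellogenin genes (right), where each line joins the values of 1 gene within a genotype. Collagens rise and fall together between libraries of a genotype, and vitellogenins are highest in double mutant replicate 3.

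Among the 8 deepest falls were 2 genes named for their response to infection. *irg-5* (chromosome V, 13737010 to 13738474, reverse strand) had 0.974, 1.99 and 1.67 TPM in *daf-2(lf)* and 76.0, 10.8 and 23.7 TPM in the double mutant (difference -3.49, SE 0.78, adjusted p = 0.012). Double mutant replicate 1 was far above the others of its group, and the call was lost without it (adjusted p = 0.0938) or without *daf-2(lf)* replicate 1 (0.0564). *irg-1* (chromosome V, 3523587 to 3524679) had 3.42, 2.00 and 4.04 TPM in *daf-2(lf)* and 11.9, 19.5 and 41.0 TPM in the double mutant (difference -2.46, SE 0.36, adjusted p = 0.000143). Uncharacterized genes were also among the 8 deepest falls. *F49H6.5* (chromosome V, 17023241 to 17025527, 12 exons) had 0.685, 0.247 and 0.292 TPM in *daf-2(lf)* and 12.2, 4.09 and 11.3 TPM in the double mutant (difference -2.75, SE 0.23, adjusted p = 4.94e-08). *C06B8.2*, which overlaps *dpf-1*, had 0.600, 0.928 and 0.928 TPM in *daf-2(lf)* and 7.34, 8.67 and 11.4 TPM in the double mutant (difference -2.46, SE 0.28, adjusted p = 4.47e-06). *Y37D8A.4*, which overlaps *Y37D8A.3*, had 5.65, 5.41 and 3.97 TPM in *daf-2(lf)* and 34.6, 27.3 and 29.7 TPM in the double mutant (difference -2.40, SE 0.33, adjusted p = 4.87e-05). *ZC239.22* fell by 2.68 (adjusted p = 2.28e-05), with 1.02, 1.02 and 1.87 TPM in *daf-2(lf)* and 12.8, 6.89 and 27.3 TPM in the double mutant. *K08D8.11*, a single short exon that overlaps *K08D8.12*, had 0, 5.27 and 3.17 TPM in *daf-2(lf)* and 9.12, 16.23 and 26.6 TPM in the double mutant. It rested on at most 26 estimated reads a library and was lost without *daf-2(lf)* replicate 1 (adjusted p = 0.0907) or double mutant replicate 3 (0.0842).

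Of 13 genes known to be lowered by DAF-16, 4 fell (against 0.714% of all genes) and 0 rose, with a median of -1.35. *dod-22*, named as a gene downstream of DAF-16, had 0.319, 0.643 and 0.322 TPM in *daf-2(lf)* and 6.12, 5.07 and 7.11 TPM in the double mutant (difference -2.31, SE 0.18, adjusted p = 1.13e-08). *dod-24* had 1.57, 3.38 and 4.196 TPM in *daf-2(lf)* and 14.5, 7.01 and 6.77 TPM in the double mutant, and its adjusted p of 0.0496 was lost without any library other than *daf-2(lf)* replicate 3 (0.0571 to 0.293). *dod-17* had 1.43, 3.73 and 3.61 TPM in *daf-2(lf)* and 14.2, 18.2 and 18.7 TPM in the double mutant and did not pass (difference -2.26, SE 0.62, adjusted p = 0.0608). A gene of the same naming series went the other way: *dod-3* had 209, 38.0 and 76.5 TPM in *daf-2(lf)* and 30.6, 3.43 and 1.64 TPM in the double mutant (difference 3.58, SE 0.89, adjusted p = 0.0312). The *dod-3* call was lost without *daf-2(lf)* replicate 1 (adjusted p = 0.191) or 3 (0.087) or double mutant replicate 2 (0.149) or 3 (0.232).

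The vitellogenin genes encode yolk proteins made in the adult intestine. Of 6 tested, 4 fell (against 0.714% of all genes) and 0 rose, with a median of -2.70. All 6 had an unadjusted p under 0.05, against 1162 of the 14714 genes tested. *vit-5* had 4.70, 0.0527 and 0.363 TPM in *daf-2(lf)* and 5.90, 8.50 and 155 TPM in the double mutant (difference -3.43, SE 0.79, adjusted p = 0.0171). *vit-2*, among the most abundant, had 81.9, 0.460 and 11.7 TPM in *daf-2(lf)* and 41.8, 46.2 and 615 TPM in the double mutant, with overlapping libraries, and was not called (adjusted p = 0.221). *vit-6* (65.9, 1.01 and 12.3 against 40.2, 46.8 and 562 TPM) was not called either. Double mutant replicate 3 held by far the highest level of every member and *daf-2(lf)* replicate 2 the lowest. Of all 14714 genes tested, the former was the highest of its group for 4681 and the latter the lowest for 6003. Without double mutant replicate 3, *vit-5* (adjusted p = 0.0755) and *vit-4* (0.055) were not called, and *vit-5* was also lost without *daf-2(lf)* replicate 2 (0.105) or 3 (0.0994), *vit-4* without *daf-2(lf)* replicate 2 (0.195) or 3 (0.131), and *vit-3* without *daf-2(lf)* replicate 2 (0.0779). The fit of the 6 libraries alone called none of the 6, nor did the estimated reads. Sperm markers showed a like order of libraries, with a mean log2(TPM + 1) of 5.44, 3.20 and 4.72 in *daf-2(lf)* and 4.90, 4.70 and 6.16 in the double mutant. Their part in the change of the yolk genes was not tested. *vit-3*, *vit-4* and *vit-5* are near copies of each other, so their reads may be split.

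The DAF-16 effect was then set against that in muscle cells. In muscle cells 46 genes rose (0.313% of those tested) and 44 fell (0.299%) by the limma fit. With DESeq2, the study called more genes in this contrast of muscle cells. The number called in muscle cells thus depends on the method, and a lower number than in all cells does not show a narrower effect. Genes that rose in both numbered 23, of 253 in all cells and 46 in muscle cells, and genes that fell in both numbered 3, of 105 and 44. A test of the difference itself called 133 of all genes (0.904%), of which 124 were among the 358: 106 that rose and 18 that fell. Many of the genes of the all cells contrast were scarce in muscle. In *daf-2(lf)* muscle cells, 176 of the 253 that rose (69.6%) and 95 of the 105 that fell (90.5%) averaged below 1 TPM, against 40.4% of all genes tested. Of the 124 genes, 109 averaged below 1 TPM in muscle cells of both genotypes, among them all 18 that fell. At such levels the pseudocount holds the muscle difference near 0, so the tested value is largely the all cells difference, and a change of equal fold in muscle could go undetected. With a pseudocount of 0.1 TPM the test called 62 genes. *scl-12* had 0.324, 0.555 and 0.976 TPM in *daf-2(lf)* muscle cells, and no double mutant muscle library exceeded 0.0527 TPM, and its difference was 6.203 greater in all cells (SE 0.53, adjusted p = 2.75e-07, and 1.55e-06 with the smaller pseudocount). *spp-29* was listed at 0 in all 6 of these muscle libraries. *col-108* had 0.276, 0.121 and 0.691 TPM in *daf-2(lf)* muscle cells and 0.0237, 0.188 and 0.418 TPM in double mutant muscle cells, and its difference was 4.501 greater in all cells (SE 0.41, adjusted p = 7.6e-07, and 0.00444 with the smaller pseudocount). *dod-22* had 0, 0.0351 and 0.0842 TPM in *daf-2(lf)* muscle cells and 0.265, 0.3004 and 0.303 TPM in double mutant muscle cells, and *F49H6.5* had 0, 0.0698 and 0.0213 against 0.188, 0.203 and 0.323 TPM. Their differences between cell types of -2.0 (adjusted p = 4.78e-05) and -2.48 (adjusted p = 8.56e-05) did not pass with the smaller pseudocount (adjusted p = 1 and 0.0642). Of the 124 genes, *F55B12.10*, named after its values were seen, was the only one whose change was greater in muscle. It had 147, 36.9 and 166 TPM in *daf-2(lf)* all cells and 4.27, 13.03 and 9.68 TPM in double mutant all cells, and 488, 126 and 619 TPM in *daf-2(lf)* muscle cells and 0, 1.53 and 3.90 TPM in double mutant muscle cells (difference between cell types -3.78, SE 0.88, adjusted p = 0.0372, and 0.431 with the smaller pseudocount).

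Other genes rose in both. *C54F6.15* had 114, 73.1 and 90.1 TPM in *daf-2(lf)* muscle cells and 1.62, 0 and 1.02 TPM in double mutant muscle cells, and its differences of 6.55 in all cells and 5.72 in muscle cells were not told apart (difference 0.83, SE 0.57, adjusted p = 1). *hsp-12.6* rose by 4.12 in muscle cells (adjusted p = 0.00127) and by 5.19 in all cells. *sod-3* reached 221, 75.7 and 207 TPM in *daf-2(lf)* muscle cells and 1.05, 1.72 and 2.04 TPM in double mutant muscle cells. *C54F6.5*, a gene the study singled out in muscle, had 123, 56.8 and 85.7 TPM in *daf-2(lf)* all cells and 7.11, 11.2 and 17.6 TPM in double mutant all cells (difference 2.80, SE 0.63, adjusted p = 0.0142). In *daf-2(lf)* muscle cells it had 1258, 301 and 897 TPM, and in double mutant muscle cells 11.9, 15.3 and 41.6 TPM. The all cells call of *C54F6.5* was lost without *daf-2(lf)* replicate 1 (adjusted p = 0.082) or 3 (0.0589) or double mutant replicate 1 (0.078). *gstk-2*, a kappa-class glutathione transferase gene that overlaps *elo-3*, rose by 1.38 in all cells (adjusted p = 0.042), but not with any 1 of the 6 libraries left out (0.0578 to 0.246), and by 2.05 in muscle cells (adjusted p = 0.00513). *cex-1*, for the calcium-binding protein calexcitin, had 91.8, 116 and 219 TPM in *daf-2(lf)* all cells and 49.5, 97.6 and 122.4 TPM in double mutant all cells, with overlapping libraries (difference 0.65, SE 0.33, adjusted p = 0.704). In muscle cells *cex-1* rose, with 599, 724 and 993 TPM in *daf-2(lf)* and 114, 212 and 215 TPM in the double mutant (difference 2.12, adjusted p = 0.00171). *mlcd-1*, the malonyl-CoA decarboxylase gene, had 7.37, 6.37 and 11.8 TPM in *daf-2(lf)* all cells and 4.48, 7.84 and 10.3 TPM in double mutant all cells and likewise overlapped (difference 0.18, SE 0.38). In muscle cells *mlcd-1* had 14.7, 13.3 and 15.4 TPM in *daf-2(lf)* and 2.28, 6.98 and 8.49 TPM in the double mutant (difference 1.29, adjusted p = 0.157). The limma fit did not call this muscle difference, which the study called with DESeq2.

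**Figure D5:**
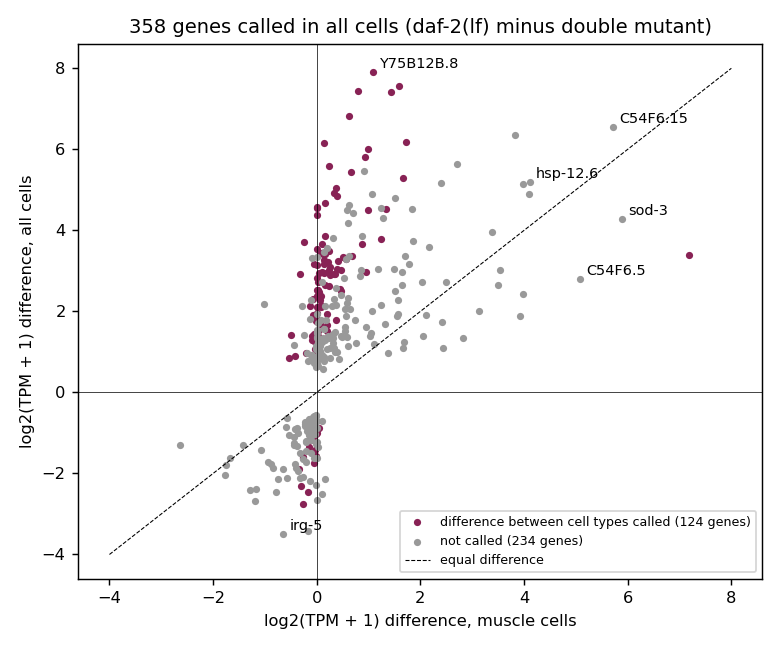
For the 358 genes called in all cells, the log2(TPM + 1) difference (*daf-2(lf)* minus double mutant) in all cells (vertical axis) is plotted against that in muscle cells (horizontal axis), with the line of equal difference dashed. The 124 genes whose difference between the cell types passed the test (purple) lie mostly near 0 in muscle cells, while *F55B12.10* lies at 7.19 there.

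Further large gene families were examined in the same way. Of 80 cytosolic ribosomal protein genes none was called by limma or from estimated reads, none had an unadjusted p under 0.05, and the median was 0.07. Over all genes tested, 1.72% rose, 0.714% fell, and 1162 of 14714 had an unadjusted p under 0.05. Of 164 nuclear hormone receptor genes, only *nhr-155* rose and only *nhr-99* fell (4.27, 3.00 and 3.08 against 8.11, 6.90 and 8.80 TPM, difference -1.01, adjusted p = 0.00651). Of 54 transthyretin-related genes, *ttr-19* alone rose, with 8.28, 3.10 and 24.1 TPM in *daf-2(lf)* and 0, 0.0794 and 0 TPM in the double mutant (difference 3.26, SE 0.37, adjusted p = 3.32e-06). Of 41 major sperm protein genes none was called by limma or from estimated reads, with 1 at an unadjusted p under 0.05. Their median was -0.92 and 2 of the 41 had a difference above 0, and the sperm marker list stood at -0.80, as given above. The sperm markers themselves include the major sperm protein genes *msp-3*, *msp-10*, *msp-31* and *msp-142*. The part of the sperm markers in these values was not tested.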

How the data were processed

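Young adult cells of each strain were dissociated, sorted and sequenced as mRNA. The deposited values are TPM per transcript, which the authors estimated with Salmon 1.4.0 (WBcel235). TPM values of 35749 transcripts were summed over 21979 genes by sequence name. Symbols and positions came from an Ensembl annotation (21891 genes matched, 88 kept their sequence name). The strand setting was not given in the sources used here, so overlapping genes are named. The 14714 genes that reached 1 TPM in 3 or more of the 24 libraries were tested with limma 3.58.1 (R 4.3.3) on log2(TPM + 1), with 1 mean for each of 8 groups, an abundance trend and Benjamini-Hochberg adjustment (threshold 0.05). The p-values measure the spread between libraries within a group, pooled over all 8 groups. The labels name a single-end and a paired-end library kit without saying which library was made with which. The length offset recovered from the TPM steps was 158 to 212 bases in libraries with intact *daf-2* and 234 to 252 bases in those with *daf-2(lf)*. The pooled spread draws on both sets, and the fit of the 6 libraries alone on the latter only. What this does to the calls was not tested. For genes near 0 in other groups, this spread can be smaller than that within the 6 libraries compared. The adjusted p of *clec-101* was 7.13e-07 in the limma fit of all libraries and 0.0553 in that of the 6 alone. Nothing in the labels says how the cultures of the all cells libraries were separated. Estimated reads, recovered from the steps between low TPM values (95.4 to 95.9% whole within 0.15 of a read), were tested with limma-voom in the 6 libraries as an alternative chosen after seeing the data. Same-numbered all cells and muscle cells libraries of a genotype deviated together (correlations 0.166 to 0.441 in all 6 pairs, against -0.338 to 0.161 for other numbers), so a fit of the 12 libraries at low IIS with these pairs as a block was added after seeing the data. Scripts were tested on simulated data.

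The genes named were the 14 highest and 8 lowest called differences without overlap, up to 5 called members of each list by size, *daf-16*, *daf-2*, *sod-3* and 4 genes of the study. Members, lists and tests were chosen with earlier results of these data known. Members named without a call were chosen after their values were seen. No sequences are shown.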

Additional observations from a re-analysis of the deposited data

Results flagged for a closer look

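The DAF-16 effect at low IIS differed between cell types for 28 of the named genes. Each value is the log2(TPM + 1) difference of *daf-2(lf)* minus double mutant in all cells minus the same difference in muscle cells, followed by its adjusted p from the limma fit of all 24 libraries. Values above 0 were those of *Y75B12B.8* 6.828 (4.41e-10), *Y60C6A.3* 5.971 (2.75e-07), *Y57E12B.1* 6.660 (0.000339), *Y60C6A.2* 5.970 (4.95e-06), *scl-12* 6.203 (2.75e-07), *ZK355.8* 4.462 (0.0467), *Y71F9AM.8* 6.009 (7.6e-07) and *scl-13* 5.011 (1.04e-06). Further such values were those of *F20E11.17* 4.897 (0.00811), *scl-11* 5.351 (1.27e-06), *smf-2* 2.383 (8.82e-07), *gst-29* 2.545 (8.3e-06), *cyp-33B1* 1.505 (0.00822), *lipl-4* 1.363 (0.0316), *lips-11* 0.909 (0.0467) and *spp-29* 4.572 (8.82e-07), and of *spp-20* 3.206 (0.00149), *clec-101* 3.715 (0.000396), *clec-249* 2.807 (0.000433), *col-108* 4.501 (7.6e-07), *ttr-19* 3.132 (0.00128) and *nhr-155* 2.568 (9.03e-06). Values below 0 were those of *F49H6.5* -2.483 (8.56e-05), *C06B8.2* -2.292 (0.0022), *dod-22* -2.0 (4.78e-05), *ins-7* -1.350 (0.00822), *lips-6* -1.086 (0.0373) and *clec-26* -1.688 (0.000491). Most of these genes were scarce in muscle cells, where the pseudocount holds a difference near 0, and with a pseudocount of 0.1 TPM 16 of the 28 still passed and none of the 6 values below 0 did (adjusted p 0.0642 for *F49H6.5* and 1 for the others). With same-numbered all cells and muscle cells libraries as a block, 21 of the 28 passed, and *ZK355.8* (adjusted p = 0.0581), *F20E11.17* (0.0503), *ins-7* (0.192), *cyp-33B1* (0.116), *lipl-4* (0.216), *lips-6* (0.213) and *lips-11* (0.238) did not.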

How the results depend on the processing

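Of 358 genes called, 155 were called with a pseudocount of 0.1 TPM (134 higher, 21 lower), 170 with at least 4 TPM (130 higher, 40 lower) and 770 of 20797 genes with no filter (480 higher, 290 lower). The difference between cell types was called for 62, 63 and 238 genes there, against 133. Quantile normalization called 303 genes, 68 of them lower, and 61 for the cell types. Median-of-ratios scaling called 234, 52 of them lower. The 6 libraries alone called 158 (128 higher, 30 lower), and 76 genes for the cell types when only the groups compared were fitted. Estimated reads called 181 (149 higher, 32 lower). Leaving out 1 library gave 263 to 340 genes, and 123 to 158 for the cell types. The share called higher was 70.7%, 86.5% with the small pseudocount, 81% with the 6 libraries alone, 82.3% from estimated reads and 59.7% without double mutant replicate 1.

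With the replicate block, 253 genes were called, 180 of them shared (205 higher, 48 lower, 81% higher), and 67 for the cell types. With estimated reads and the replicate block 267 were called, 48 lower. All cells libraries of the 2 genotypes with a shared number correlated in their deviations at 0.03, 0.55 and 0.16, against -0.67 to 0.45 for other numbers. These ranges overlap, and the labels do not say whether a shared number marks a pairing between these genotypes. With all cells and muscle cells libraries of a genotype paired, the replicate block called 104 genes for the cell types, 75 of them among the 133.

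*daf-16* reversed to 0.23 from estimated reads, with and without the block, and *mlcd-1*, at 0.18, ranged from -0.11 without double mutant replicate 1 to 0.41 without double mutant replicate 3, and was -0.06 without *daf-2(lf)* replicate 3. Among the other named values, 1088 kept their direction and side of the threshold and 269 lost the call. The causes were not tested. Marker differences moved by less than 1 SD. With 1 read at 0.0107 to 0.0123 TPM for 1500 bases, values below 0.1 TPM rest on few reads.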
